A study of Mus musculus with 24 samples.

Results

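The change in gene expression between day 0 and day 7 of neural differentiation was compared between mouse embryonic stem cell lines that lack Cdc14b and lines that keep it. The comparison used 16 of the 24 libraries of the series, the day 0 and day 7 libraries of 8 lines. For each line the response of a gene was the log2 of its normalized count plus 1 at day 7 minus the same value at day 0. The mean response of 4 Cdc14b-null lines was set against that of 4 Cdc14b-intact lines. Of 14983 genes tested, 724 had a response that differed (4.83%), 430 with a higher (2.87%) and 294 with a lower (1.96%) response in the null lines. Without wild-type clone 3 limma called 0 genes (2565 at an unadjusted p under 0.05).

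The Cdc14b-null lines were clones 1 and 3 of Cdc14b KO and clones 1 and 3 of Cdc14ab KO, which lacks Cdc14a as well. The Cdc14b-intact lines were clones 1 and 3 of Cdc14a KO and clones 1 and 3 of wild type, so Cdc14a was deleted in 2 lines of each arm. Wherever the values of 4 null lines or of 4 intact lines are given, they stand in that order. All were embryonic stem cells from mouse blastocysts, kept on feeder cells with the cytokine LIF and plated on gelatin at low density before RNA was taken, to remove the feeders. For differentiation the LIF medium was exchanged for N2B27 medium with EGF and FGF2, and at day 6 the cells were replated densely on laminin without the growth factors. Each genotype was represented by 2 clones. P-values measure only the spread between these 8 lines. Libraries were made from the 3′ ends of polyadenylated transcripts (QuantSeq), and levels are normalized counts that were not divided by transcript length.

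Cdc14 enzymes belong to the dual-specificity phosphatases and favour sites that cyclin-dependent kinases phosphorylate. In budding yeast Cdc14 drives exit from mitosis. Mammals have the paralogs Cdc14a and Cdc14b. The title of the series ties them to UTF1, a chromatin-bound factor of pluripotent cells that acts at bivalent promoters, which carry activating and repressive histone marks together. When LIF is withdrawn in N2B27 medium, mouse embryonic stem cells leave the naive pluripotent state, pass through a formative state and turn on genes of neural progenitors and then of neurons.

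The 16 libraries held 6422883 to 10040787 reads. The day 0 library of Cdc14ab KO clone 1 stood apart, with 8.7% of its reads on the predicted gene Gm42418 and 5.23% of all 17545 genes at 0. The day 0 library of Cdc14b KO clone 3 had 7.97% on Gm42418, against 1.78% to 5.11% in the other 14. A single label field describes the day 7 library of wild-type clone 3 as cells that were not differentiated, while its title and treatment give day 7. Its Map2 level was the highest of the 8 day 7 libraries. Y-linked transcripts (the sum over Ddx3y, Eif2s3y, Kdm5d and Uty) summed to 4.44 to 57.1 normalized counts in the null libraries and 68.4 to 546 in the intact libraries. Xist, which silences an X chromosome in female cells, had 44.6, 7.87, 46.2 and 11.8 at day 7 in the null lines and 8.69, 1.63, 3.49 and 4.27 in the intact lines, which overlapped. At day 0 Xist had 4.75, 6.67, 27.8 and 54.9 in the null lines and 3.12, 0.9, 1.07 and 2 in the intact lines, which did not. Y-linked levels moved with the arm at both days and Xist at day 0, and their part in the results was not tested. A sum of 6 pluripotent cell markers was 10764 to 19905 at day 7 in the null lines and 7504 to 13687 in the intact lines, and 26964 to 46402 at day 0 in the null lines and 23053 to 29815 in the intact lines.

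Transcripts of Cdc14b were counted in every line, null lines included. Counts came from 3′ ends, and where the deletion lies in the gene is not given in the sources used here. They do not check the genotype. The day 7 level of Cdc14b was 106, 157, 101 and 132 in the null lines and 164, 169, 196 and 183 in the intact lines. Its day 0 level was 233, 263, 325 and 247 in the null lines and 137, 168, 104 and 142 in the intact lines. The null lines were all above the intact lines at day 0 and all below them at day 7. The line responses were -1.12, -0.75, -1.68 and -0.90 in the null lines and 0.26, 0.01, 0.92 and 0.36 in the intact lines. The response difference was -1.50 ± 0.35 (SE, n = 4 lines each, limma adjusted p = 0.0361, two-sided exact permutation p = 0.0286, the smallest that 70 assignments allow). The call was lost in the fits without wild-type clone 3 (adjusted p = 0.121), wild-type clone 1 (adjusted p = 0.0956), Cdc14a KO clone 1 (adjusted p = 0.0788), Cdc14a KO clone 3 (adjusted p = 0.0664), Cdc14b KO clone 1 (adjusted p = 0.0579) and Cdc14ab KO clone 1 (adjusted p = 0.0569). Cdc14a had low levels, 9.12, 4.37, 8.84 and 5.04 at day 7 in the null lines and 6.52, 9.77, 8.14 and 10.2 in the intact lines. Its response difference of -0.10 ± 0.71 was smaller than its error (limma adjusted p = 0.952, exact permutation p = 0.857).

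Utf1, the gene named with the phosphatases, had 1566, 2012, 1648 and 987 normalized counts at day 7 in the null lines and 789.6, 754, 677 and 411 in the intact lines. At day 0 the levels were 2407, 1273, 1142 and 1506 in the null lines and 1142, 2233, 1659 and 2966 in the intact lines. The arms overlapped at day 0, and at day 7 all 4 null lines were above all 4 intact lines. The intact lines fell, with a mean response of -1.56 (limma adjusted p = 0.00487), and the null lines averaged -0.01 (adjusted p = 0.987). The response difference of 1.55 ± 0.48 did not pass the threshold (adjusted p = 0.077, two-sided exact permutation p = 0.0857). It passed by DESeq2 (1.54, adjusted p = 0.0272), where edgeR gave 1.63 (adjusted p = 0.0826), and over all alternatives the adjusted p was 0.0272 to 0.605. On simulated data, which held no effect of a line or clone across genes, DESeq2 made 27.6 false calls per simulation, against 2.8 by limma and 2 by edgeR.

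In the null lines 2342 genes rose and 1931 fell (15.6% and 12.9% of genes tested, 28.5% in all). In the intact lines 2374 rose and 1774 fell (15.8% and 11.8%, 27.7% in all). At an unadjusted p under 0.05, 41.2% of genes changed in the null lines and 40% in the intact lines. Of the genes that rose in the null lines 49.2% also rose in the intact lines, and the 1152 shared genes were 48.5% of those that rose in the intact lines. The 605 genes that fell in both were 31.3% of the falls in the null lines and 34.1% of the falls in the intact lines, and 86 genes were called in opposite directions. Across genes, the responses of 2 lines correlated at 0.431 to 0.597 among the 6 null pairs, 0.598 to 0.819 among the 6 intact pairs and 0.135 to 0.617 between arms, where genes are not independent replicates and lines share no library. A principal component analysis gives the main axes of variation between the line responses. The first axis (39.4% of the variance) separated the arms, and the second (21.6%) separated all clone 1 lines from all clone 3 lines. What clones of equal number share is not given in the sources used here, and its part was not tested.

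Responses of the 724 called genes did not overlap between the 4 null and the 4 intact lines in 688 (95%), against 2348 of all genes tested (15.7%, with 8.46% higher and 7.21% lower in the null lines). The high share among called genes follows in part from the call, which used the same responses. At an unadjusted p under 0.05 the responses of 23.7% of genes differed. All 724 had the same sign in Cdc14b KO against wild type as in Cdc14ab KO against Cdc14a KO, which follows in part from the call itself. The difference between these backgrounds was called in 0 genes by limma and in 0 by edgeR, with 148 (0.988%) and 126 at an unadjusted p under 0.05. This contrast had 2 lines per genotype, and neither background alone gave a called response difference, so it cannot show that the backgrounds were alike. The number of calls rested on single lines. It was 0 without wild-type clone 3 in limma (2565 genes at an unadjusted p under 0.05, smallest adjusted p = 0.0709) and in edgeR. DESeq2, which made more false calls than limma and edgeR on simulated data, called 651 without that line. In limma the number was 30 without Cdc14a KO clone 1, 103 without Cdc14a KO clone 3, 198 without wild-type clone 1, 448 without Cdc14ab KO clone 3, 455 without Cdc14ab KO clone 1, 537 without Cdc14b KO clone 1 and 812 without Cdc14b KO clone 3. The 724 genes kept their direction and an unadjusted p under 0.05 in each of these 8 fits. That follows in part from the call, since each fit reuses lines that gave the call. Their adjusted p-values went up to 0.169, and none kept its call in all 8.

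Each called gene was placed by the mean response of the arms, counting a mean of at least 1 on the log2 scale as a response. A response present in the intact lines was lost in 318 genes, of which 143 rose and 175 fell in the intact lines by that size. A response was gained in the null lines in 184 genes, 114 as a rise and 70 as a fall. It was reversed in 134 genes, 105 with a fall in the intact lines and a rise in the null lines and 29 the other way round. It was weakened in 32 genes, all of them rises, and strengthened in 5, and 51 genes had a mean under 1 in both arms. By the same sizes, without regard to the test, 8255 of the 14983 genes tested had a mean under 1 in both arms. Counted in this way, 7.57% of all genes tested lost a rise and 7.18% a fall. A rise was gained in 7.48% and a fall in 7.47%. A rise was reversed in 0.3% and a fall in 1.07%, a rise was weakened in 5.22%, and a rise was strengthened in 4.1% and a fall in 2.93%. The class counts moved with the lines. Without Cdc14ab KO clone 1 limma gave 241 lost, 97 gained and 56 reversed responses. Over the 8 fits without 1 line, the counts were 0 to 311 lost, 0 to 238 gained and 0 to 165 reversed.

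**Figure D1:**
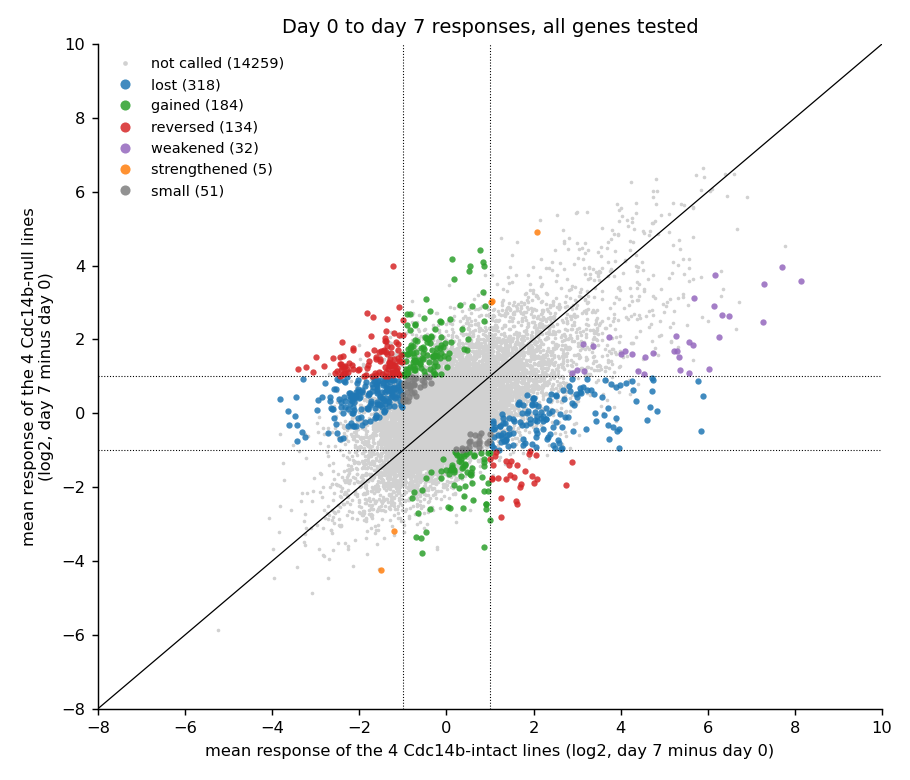
Mean response of the 4 Cdc14b-null lines (vertical axis) against that of the 4 Cdc14b-intact lines (horizontal axis), log2 of the normalized count plus 1 at day 7 minus day 0, for the 14983 genes tested. Coloured points are the 724 called genes by class, dotted lines mark a response of 1 and the solid line equal responses; lost rises lie to the right along the horizontal axis and reversed falls at the upper left.

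The response difference is the day 7 difference minus the day 0 difference, and both contributed. Among the 430 genes with a higher response, the median difference between null and intact lines was 1.30 at day 7 and -0.99 at day 0, and the difference was larger in size at day 7 in 290. Among the 294 with a lower response it was -1.72 at day 7 and 0.61 at day 0, larger at day 7 in 261. The differences at the 2 days had opposite signs in 429 of the 430 and in 276 of the 294, against 9128 of the 14983 genes tested, which the contrast itself favours. At day 2, which the contrast did not use, the median difference was 0.61 for the genes with a higher response and -0.60 for those with a lower response, and -0.00217 over all genes tested. Relative to each gene's mean over the 16 libraries, the 430 genes had day 0 medians of 0.32, -0.26, -1.36 and -0.42 in the null lines. The intact lines had 0.59, 0.36, 0.41 and 0.91. Cdc14ab KO clone 1 lay farthest from the intact lines, and without it limma called 274 genes higher and 181 lower.

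**Figure D2:**
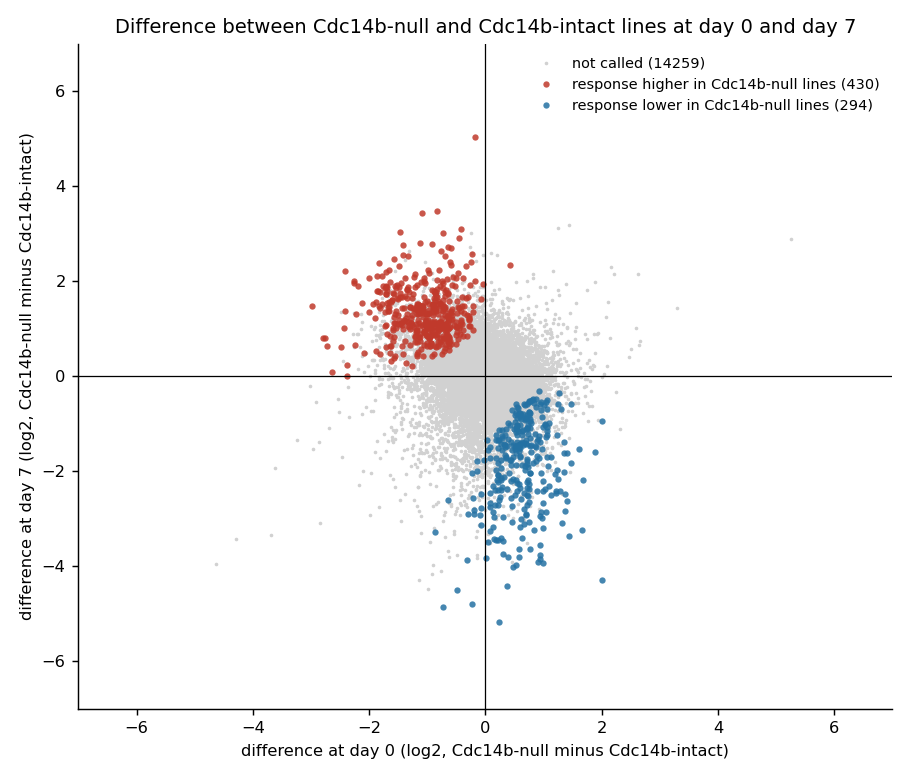
Difference between Cdc14b-null and Cdc14b-intact lines in mean log2(normalized count + 1) at day 0 (horizontal axis) and day 7 (vertical axis) for the 14983 genes tested. Of the 430 genes with a called higher response (red) 429 lie at the upper left, and of the 294 with a called lower response (blue) 276 lie at the lower right. Blue points reach farther down than red points reach up.

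The genes with the lowest response in the null lines, relative to the intact lines, included Ntng1 and Ly6h. Ntng1, the GPI-anchored axon guidance protein netrin-G1 (chromosome 3), had 9.12, 13.1, 22.6 and 0 normalized counts at day 7 in the null lines and 147, 134, 145 and 171 in the intact lines. At day 0 it had 4.75, 22.2, 10.1 and 7.39 in the null lines and 0, 1.8, 7.47 and 1 in the intact lines. The day 7 levels separated the arms and the day 0 levels overlapped, and the response difference was -6.31 ± 0.96 on the log2 scale (limma adjusted p = 0.0129). Ly6h, a GPI-anchored brain protein (chromosome 15), had 36.5, 313, 90.4 and 24.3 at day 7 in the null lines and 1741, 3239, 1943 and 4111 in the intact lines. Ly6h at day 0 had 36.8, 44.5, 101 and 40.1 in the null lines and 49.9, 52.1, 58.7 and 22 in the intact lines. Ly6h differed by -5.40 ± 0.73 (adjusted p = 0.0129), and Cdc14b KO clone 3 was the null line with the highest day 7 level.

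Pou3f2, the neural POU factor Brn2, had 4.05, 14, 5.89 and 4.2 at day 7 in the null lines and 31.5, 219, 67.4 and 280 in the intact lines. Its day 0 levels were 0 to 12.2 in the null lines and 0 to 3.12 in the intact lines. Pou3f2 differed by -4.81 ± 1.02 (adjusted p = 0.0281). Gpm6a, a neuronal membrane glycoprotein, had 13.2, 87.4, 6.88 and 3.36 at day 7 in the null lines and 113, 216, 186 and 389 in the intact lines. At day 2 the null lines had 48.8, 84.5, 54.9 and 76.9 and the intact lines 100.1, 196, 73.5 and 248. In every null line except Cdc14b KO clone 3 the day 2 level stood above the day 7 level, while in the intact lines it stood below the day 7 level. Gpm6a differed by -4.78 ± 0.81 (adjusted p = 0.0171). Cdh22, a cadherin of the brain, differed by -4.81 ± 0.93 (adjusted p = 0.0234). Its day 7 levels were 1.01, 31.5, 0.98 and 6.71 in the null lines and 25, 101, 37.2 and 110.1 in the intact lines, which overlapped through Cdc14b KO clone 3. Of the 5 calls, 5 were lost without wild-type clone 3 (adjusted p = 0.0709 to 0.104), 3 without Cdc14a KO clone 1 (adjusted p = 0.0501 to 0.0567) and 2 without Cdc14a KO clone 3 (adjusted p = 0.053 to 0.0651). Leaving out wild-type clone 1 ended 1 (adjusted p = 0.0593).

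**Figure D3:**
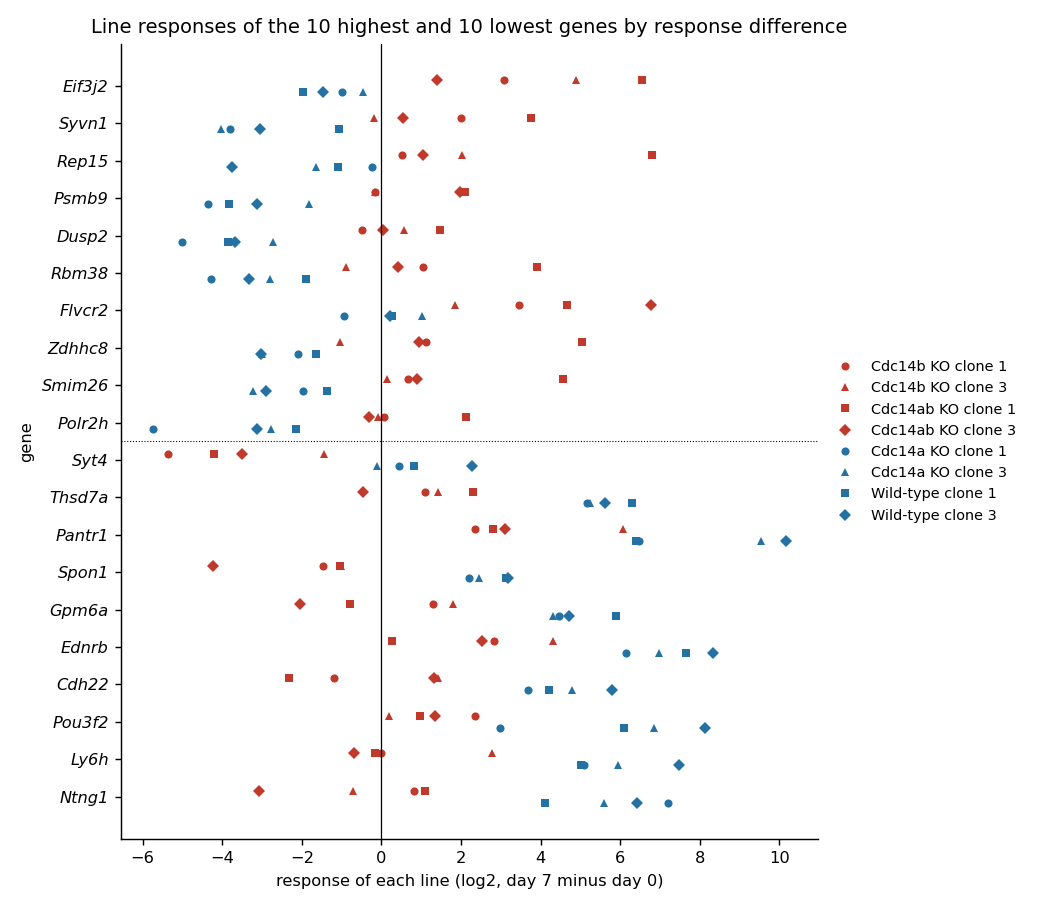
Response of each line (log2, day 7 minus day 0) for the 10 genes with the highest and the 10 with the lowest response difference by the naming rule, in red for the 4 Cdc14b-null lines and in blue for the 4 Cdc14b-intact lines. Red and blue points do not overlap in any of the 20 genes, which the naming rule required, and Cdc14ab KO clone 1 (red squares) gives the highest response in 9 of the 10 genes with the highest difference.

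Neuronal genes were among the 143 lost rises. Map2, which stabilizes microtubules in dendrites (chromosome 1), had 56.7, 266, 87.4 and 52.9 normalized counts at day 7 in the null lines and 476, 1236, 650 and 2377 in the intact lines. Its day 0 levels were 71.3, 171, 94.9 and 152 in the null lines and 59.3, 108, 75.8 and 61.1 in the intact lines, which overlapped. The response difference was -4.04 ± 0.56 (adjusted p = 0.0129), with a mean response of -0.33 in the null lines and 3.71 in the intact lines. Dtx4, a Deltex family ubiquitin ligase of the Notch pathway, had 71.9, 728, 88.4 and 146 at day 7 in the null lines and 1065, 3309.6, 1141 and 4168 in the intact lines. Dtx4 differed by -4.40 ± 0.60 (adjusted p = 0.0129). Pak3, a neuronal p21-activated kinase on chromosome X, had 21.3, 27.1, 16.7 and 5.88 at day 7 in the null lines and 57.6, 87.9, 76.7 and 109 in the intact lines. Pak3 differed by -3.39 ± 0.51 (adjusted p = 0.0129). Of these 3 calls, 3 were lost without wild-type clone 3 (adjusted p = 0.0709).

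Of 26 neuron genes tested, 12 had a lower response in the null lines and 0 a higher one, and 25 of the 26 differences were negative. Over all genes tested 1.96% were called lower and 2.87% higher. In the null lines 15.6% of all genes tested rose and 12.9% fell, and in the intact lines 15.8% rose and 11.8% fell. These shares stand beside the counts of each list that follows. The median difference of the list was -2.43, beside -0.05 over all genes tested. In the null lines 5 of the 26 rose and 10 fell, with a median response of -0.78, and in the intact lines 16 rose and 0 fell, with a median of 2.25. Besides Map2, the members called were Scg3, Onecut2, Gap43, Elavl2, Elavl3, Elavl4, Nefl, Neurod1, Rbfox3, Stmn3 and Tubb3, which encode secretory granule, growth cone, RNA-binding, neurofilament, tubulin-binding, tubulin and transcription factor proteins of neurons. Scg3, secretogranin III of dense-core granules, had 4.05, 8.74, 3.93 and 0.84 at day 7 in the null lines and 27.1, 53.7, 24.4 and 90.5 in the intact lines. Scg3 differed by -4.90 ± 0.77 (adjusted p = 0.0141). Gap43, a growth cone protein, had 36.5, 94.4, 56 and 55.4 at day 7 in the null lines and 190.1, 347, 201 and 464 in the intact lines. Gap43 at day 0 had 202, 188, 405 and 139 in the null lines and 149, 144, 158 and 128 in the intact lines. It fell in the null lines (mean response -1.89, adjusted p = 0.00233) and counted as a gained fall. Gap43 differed by -2.84 ± 0.50 (adjusted p = 0.0171). Onecut2, a homeodomain factor, rose in both arms, to 43.5, 83.9, 54 and 51.2 in the null lines and 235, 387, 294 and 768 in the intact lines at day 7. Onecut2 differed by -3.17 ± 0.60 (adjusted p = 0.0215).

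The neuron count moved with the lines. It was 0 without wild-type clone 3, 2 without Cdc14a KO clone 1, 4 without Cdc14a KO clone 3 and 7 without wild-type clone 1. It was 8 without Cdc14ab KO clone 1, 9 without Cdc14b KO clone 1 or Cdc14ab KO clone 3 and 18 without Cdc14b KO clone 3, with a median difference of -2.80 to -2.08. edgeR called 11 and DESeq2 14 of the 26. At the level of marker sums (Tubb3, Map2, Dcx, Elavl4, Stmn2 and Snap25), the null lines had 1068 to 2313 normalized counts at day 7 and the intact lines 2729 to 8454. At day 0 the null lines had 2509 to 4049 and the intact lines 1497 to 2336. No marker was at 0 throughout an arm. In these bulk libraries fewer cells of a type and less RNA per cell cannot be told apart.

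Of 18 neural progenitor genes tested, 2 had a lower response and 0 a higher one, with a median difference of -1.16. Of the 18, 3 rose and 2 fell in the null lines, and 8 rose and 1 fell in the intact lines. Nkx6-1, a homeodomain factor of the ventral neural tube that Hedgehog signals induce, had 10.1, 58.6, 20.6 and 15.9 at day 7 in the null lines and 312, 929, 531 and 1079.9 in the intact lines. Nkx6-1 at day 0 had 9.5, 23.3, 17.7 and 8.44 in the null lines and 57.2, 16.2, 37.4 and 8.01 in the intact lines. It differed by -4.11 ± 0.81 (adjusted p = 0.0234). Ptprz1, a receptor phosphatase of radial glia, had 6.08, 16.6, 7.86 and 0 at day 7 in the null lines and 32.6, 119.6, 54.6 and 180.1 in the intact lines. Ptprz1 differed by -4.37 ± 0.92 (adjusted p = 0.0281). Hes5, a Notch target that maintains progenitors, had a difference of -3.34 ± 0.95 without passing the threshold (adjusted p = 0.0596), and the responses of the arms overlapped. Among 19 synapse genes 2 were lower and 0 higher, with a median of -1.01. Syt4, a synaptotagmin, had 0, 17.5, 3.93 and 2.52 at day 7 in the null lines and 31.5, 39.1, 50 and 91.3 in the intact lines. Syt4 at day 0 had 40.4, 48.9, 89.9 and 39 in the null lines and 22.9, 42.2, 27.8 and 18 in the intact lines. It fell in the null lines (-3.63, adjusted p = 0.000965). Syt4 differed by -4.49 ± 0.81 (adjusted p = 0.0187). Cplx1, a complexin that clamps vesicle fusion, differed by -3.48 ± 0.82 (adjusted p = 0.036), with 0.98 to 5.88 at day 7 in the null lines and 5.81 to 13.0 in the intact lines. Among the calls of Nkx6-1, Ptprz1, Syt4 and Cplx1, 4 were lost without wild-type clone 3 (adjusted p = 0.0815 to 0.126), 3 without Cdc14a KO clone 1 (adjusted p = 0.0567 to 0.0807) and 3 without Cdc14a KO clone 3 (adjusted p = 0.0589 to 0.0752). Removal of wild-type clone 1 ended 2 (adjusted p = 0.0526 to 0.0712), Cdc14ab KO clone 1 ended 1 (adjusted p = 0.057) and Cdc14b KO clone 1 ended 1 (adjusted p = 0.0555).

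Weakened rises numbered 32 genes. Ednrb, the endothelin receptor of neural crest cells, had 6.08, 41.1, 10.8 and 10.9 at day 7 in the null lines and 144, 465, 199 and 639 in the intact lines, with day 0 levels of 0 to 8.86 in the null lines and 0 to 2.69 in the intact lines. It rose in both arms, by 2.48 in the null lines and 7.28 in the intact lines. Ednrb differed by -4.79 ± 0.85 (adjusted p = 0.018). Tox2, an HMG-box protein, had 47.6, 390, 88.4 and 279.5 at day 7 in the null lines and 1200.2, 3174, 1363 and 3567 in the intact lines. Tox2 differed by -4.20 ± 0.63 (adjusted p = 0.0129). Thsd7a, a thrombospondin-domain membrane protein, had 16.2, 73.5, 41.3 and 15.1 at day 7 in the null lines and 294, 579, 329 and 937 in the intact lines. Thsd7a differed by -4.49 ± 0.59 (adjusted p = 0.0129). At day 2 Thsd7a had 19.9, 177, 40.9 and 115 in the null lines and 121, 103, 109 and 179 in the intact lines, which overlapped. Add2, the beta subunit of the actin-binding protein adducin, had 18.2, 90.9, 26.5 and 46.2 at day 7 in the null lines and 225, 358, 251 and 540.4 in the intact lines. Add2 differed by -3.52 ± 0.61 (adjusted p = 0.0171). Pantr1, a long non-coding RNA, had 4.05, 66.5, 14.7 and 7.55 in the null lines and 180.3, 737, 173 and 1149 in the intact lines at day 7, with 0 to 1.27 at day 0 in the null lines and 0 to 1.07 in the intact lines. Pantr1 differed by -4.57 ± 1.06 (adjusted p = 0.0345). Among the calls of Ednrb, Tox2, Thsd7a, Add2 and Pantr1, 5 were lost without wild-type clone 3 (adjusted p = 0.0709 to 0.124), 2 without Cdc14a KO clone 1 (adjusted p = 0.0502 to 0.0631) and 1 without Cdc14a KO clone 3 (adjusted p = 0.0833). Leaving out Cdc14b KO clone 1 ended 1 (adjusted p = 0.0696), Cdc14ab KO clone 1 ended 1 (adjusted p = 0.0613) and Cdc14ab KO clone 3 ended 1 (adjusted p = 0.0583).

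Among 14 retinoic acid target genes 1 had a lower response and 0 a higher one. This was Nr2f1, the orphan receptor COUP-TFI, with 162, 733, 404 and 144 at day 7 in the null lines and 1173, 3786, 1992 and 4315 in the intact lines. Nr2f1 differed by -3.76 ± 0.72 (adjusted p = 0.0226). The call was lost without wild-type clone 3 (adjusted p = 0.0917), Cdc14a KO clone 1 (adjusted p = 0.0567) and Cdc14a KO clone 3 (adjusted p = 0.053). Nr2f1 rose in both arms, as did 12 of the 14 genes in each arm, and the median difference of the list was -0.77. Stra8, which retinoic acid induces in germ cells, was not called. It rose by 6.02 in the null lines and 4.75 in the intact lines. Its difference was 1.27 ± 0.43 (adjusted p = 0.0997). Of 20 Hox genes, which pattern the body axis, 15 rose in the null lines and 17 in the intact lines, and 0 differed by limma or by edgeR while DESeq2 called 5 (9 at an unadjusted p under 0.05 in limma). Hoxb5 had 72.9, 1091, 191 and 31.1 at day 7 in the null lines and 313, 364, 477 and 1319 in the intact lines, with a difference of -2.99 ± 0.83 (adjusted p = 0.0565), and Cdc14b KO clone 3 lay within the range of the intact lines. The median difference over the 20 genes was -1.37, with 6 calls without Cdc14b KO clone 3.

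Reversed rises, with a rise of at least 1 in the intact lines and a fall of that size in the null lines, numbered 29 genes and included Spon1, Sept3, Tmod2 and Vcan. Spon1, the matrix protein F-spondin, had 4.05, 16.6, 6.88 and 0 at day 7 in the null lines and 22.8, 113, 54.6 and 152 in the intact lines. Spon1 at day 0 had 13.1, 34.5, 15.2 and 17.9 in the null lines and 4.16, 19.8, 5.34 and 16 in the intact lines. It fell in the null lines (mean response -1.94, adjusted p = 0.017) and rose in the intact lines (2.74, adjusted p = 0.0025). Spon1 differed by -4.68 ± 0.75 (adjusted p = 0.0142). Sept3, a septin of neurons, had 36.5, 124, 41.3 and 29.4 at day 7 in the null lines and 163, 367, 198 and 554 in the intact lines. Sept3 at day 0 had 139, 159, 219 and 144 in the null lines and 95.7, 98.7, 96 and 97.2 in the intact lines. Every null line lay above every intact line at day 0 and below every intact line at day 7, and the difference was -3.27 ± 0.52 (adjusted p = 0.0142). Tmod2, the neuronal tropomodulin that caps actin filaments, differed by -3.12 ± 0.48 (adjusted p = 0.0129), with 31.4, 84.8, 52.1 and 15.9 at day 7 in the null lines and 153, 204, 169 and 331 in the intact lines. Vcan, the matrix proteoglycan versican, differed by -2.79 ± 0.45 (adjusted p = 0.015) and showed the same crossing of the arms, with 64.8, 138, 73.7 and 43.6 at day 7 in the null lines and 151, 351, 277 and 564 in the intact lines. Of the 4 calls, 4 were lost without wild-type clone 3 (adjusted p = 0.0709 to 0.0769).

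Falls gained in the null lines numbered 70 genes. Meg3, a maternally expressed long non-coding RNA of the imprinted Dlk1-Dio3 domain (chromosome 12), had 3379, 12088, 4400.4 and 7769.8 normalized counts at day 7 in the null lines and 11081, 22457, 11924 and 23461 in the intact lines. At day 0 it had 11404, 25506, 16922 and 22834 in the null lines and 9598, 14086, 9626 and 14639 in the intact lines, and at each day the arms overlapped. Responses were -1.75, -1.08, -1.94 and -1.55 in the null lines and 0.21, 0.67, 0.31 and 0.68 in the intact lines, which did not overlap. Meg3 differed by -2.05 ± 0.29 (adjusted p = 0.0129). By day 2 the null lines were already at 3852, 8954, 5929.7 and 7069.9, while the intact lines had 12336, 12837, 7180.3 and 19518. Rian, from the same domain, had 571, 892, 403 and 456 at day 7 in the null lines and 1124, 1013, 1458 and 1409 in the intact lines. Rian at day 0 had 2249, 3408, 4417 and 3558 in the null lines and 2406, 1828, 1602 and 926 in the intact lines. The responses differed by -2.21 ± 0.45 (adjusted p = 0.0254). Of these 2 calls, 2 were lost without wild-type clone 3 (adjusted p = 0.0709 to 0.097), 1 without wild-type clone 1 (adjusted p = 0.058) and 1 without Cdc14a KO clone 1 (adjusted p = 0.0567). Removal of Cdc14a KO clone 3 ended 1 (adjusted p = 0.0518).

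Of 30 imprinted genes tested, 4 had a lower response (Meg3, Rian, Nnat and Grb10) and 1 a higher one (Phlda2), and the median difference was -0.58. Nnat, the paternally expressed proteolipid neuronatin, had 235, 1050.2, 356 and 46.2 at day 7 in the null lines and 2325, 4525, 2925 and 6182 in the intact lines. Nnat differed by -3.56 ± 0.60 (adjusted p = 0.0169). Phlda2, which restrains placental growth, had 478, 197, 579 and 669 at day 7 in the null lines and 159, 104, 222 and 52.9 in the intact lines. Phlda2 at day 0 had 649.8, 289, 133 and 231 in the null lines and 1931, 301, 922 and 431 in the intact lines. It fell in the intact lines (mean response -2.54, adjusted p = 0.0013). Phlda2 differed by 3.20 ± 0.63 (adjusted p = 0.0234). Between Nnat and Phlda2, 2 were lost without wild-type clone 3 (adjusted p = 0.0784 to 0.0937) and 1 without Cdc14a KO clone 1 (adjusted p = 0.0663). Over the list 0 members were called without wild-type clone 3, 2 without Cdc14a KO clone 1, and 3 without Cdc14a KO clone 3 or wild-type clone 1.

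Gli1, the transcription factor that Hedgehog signalling induces (chromosome 10), fell in the null lines (mean response -3.21, adjusted p = 4.96e-05), while the mean response of the intact lines was -0.47 (adjusted p = 0.253). Its levels were 185, 206, 195 and 110 at day 7 in the null lines and 295, 449, 453 and 645 in the intact lines. Gli1 at day 0 had 1041, 1988, 1492 and 1989 in the null lines and 551, 789, 652 and 499 in the intact lines. The null lines were all above the intact lines at day 0 and all below them at day 7, and the difference was -2.74 ± 0.41 (adjusted p = 0.0129). Among 13 Hedgehog genes, which run from receptors to targets, 2 had a lower response (Gli1 and Nkx6-1) and 0 a higher one, and the median was -0.71. The receptor component Smo, at -1.26 ± 0.52, and the coreceptor Cdon, at -0.66 ± 0.34, did not pass (adjusted p = 0.161 and 0.255). Hes6, a bHLH protein that promotes neuronal differentiation, had 234, 897, 306 and 699 at day 7 in the null lines and 746, 1944, 845 and 2425 in the intact lines. Hes6 differed by -2.09 ± 0.34 (adjusted p = 0.0142), with levels of clone 3 above those of clone 1 in each of the 4 genotypes. Zfp260, a zinc finger protein, had 79, 101, 109 and 81.4 at day 7 in the null lines and 217, 198, 184 and 294 in the intact lines and crossed between the arms as Gli1 did. Zfp260 differed by -2.18 ± 0.35 (adjusted p = 0.015). Of the calls of Gli1, Hes6 and Zfp260, 3 were lost without wild-type clone 3 (adjusted p = 0.0709 to 0.0786) and 1 without Cdc14a KO clone 1 (adjusted p = 0.0502).

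**Figure D4:**
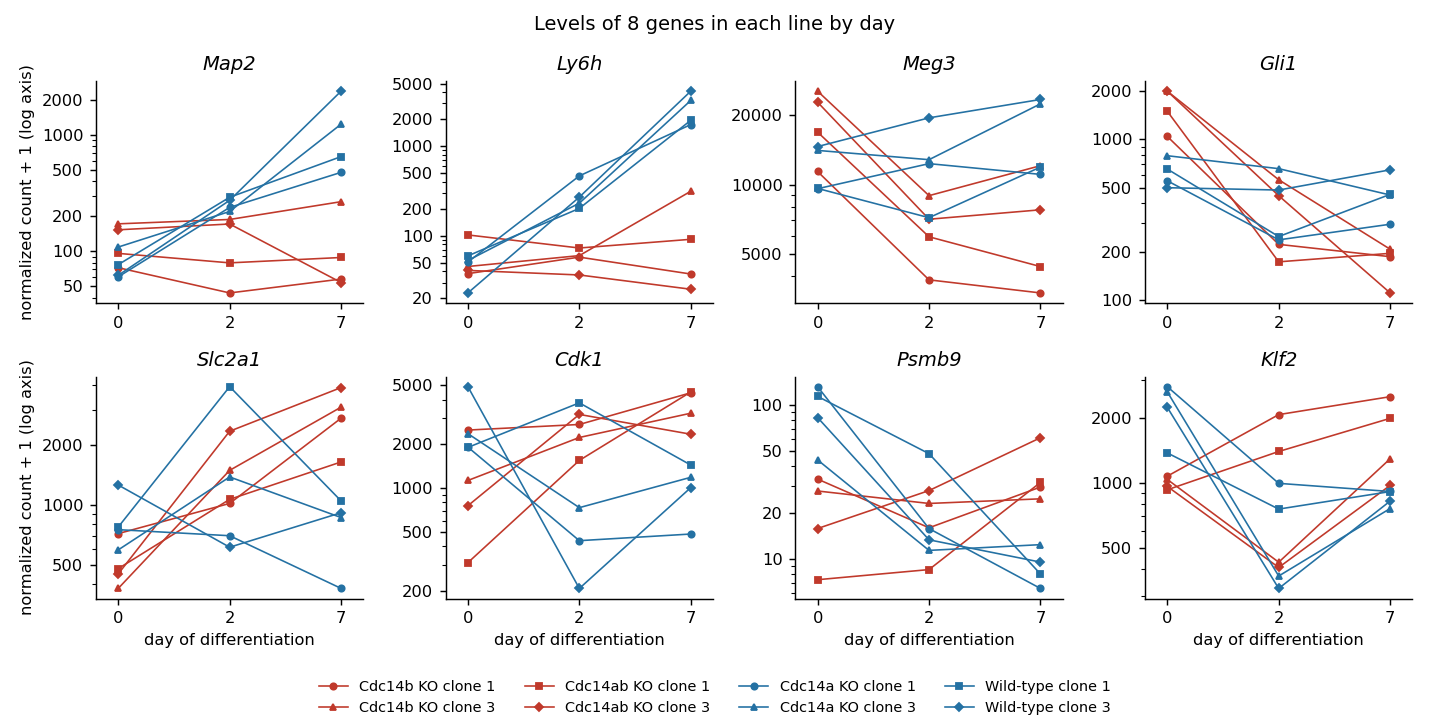
Normalized count plus 1 (log axis) at days 0, 2 and 7 in each of the 8 lines, in red for Cdc14b-null and in blue for Cdc14b-intact lines, for a lost rise (Map2, Ly6h), a gained fall (Meg3, Gli1), a gained rise (Slc2a1), a reversed fall (Cdk1) and a lost fall (Psmb9, Klf2). Map2 and Ly6h separate the arms from day 2, and wild-type clone 1 stands above the other intact lines at day 2 in Slc2a1, Cdk1 and Psmb9.

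Falls that the intact lines showed and the null lines lost numbered 175 genes. Ahsa1, an activator of the chaperone HSP90 (chromosome 12), had 271, 345, 255 and 283 at day 7 in the null lines and 57.6, 116, 62.8 and 80.2 in the intact lines. Ahsa1 at day 0 had 216, 218, 138 and 171 in the null lines and 256, 299.8, 233 and 550 in the intact lines. The arms did not overlap at either day, with opposite order, and the difference was 2.68 ± 0.36 (adjusted p = 0.0129). Dusp2, a phosphatase of MAP kinases, had 38.5, 23.6, 26.5 and 44.5 at day 7 in the null lines and 3.26, 4.88, 11.6 and 4.27 in the intact lines. Dusp2 differed by 4.21 ± 0.62 (adjusted p = 0.0129). Slc35f2, a solute carrier, had 565, 278, 336 and 345 at day 7 in the null lines and 74.9, 128, 134 and 102 in the intact lines. Slc35f2 differed by 2.62 ± 0.39 (adjusted p = 0.0129). Bub1b, the spindle checkpoint kinase BubR1, had 609.8, 323, 406 and 239 at day 7 in the null lines and 69.5, 142, 119.8 and 119 in the intact lines. Bub1b differed by 2.63 ± 0.40 (adjusted p = 0.0129). At day 2 Bub1b had 452, 194, 311 and 303 in the null lines and 214, 156, 528 and 96.7 in the intact lines, with wild-type clone 1 above the other intact lines. Of these 4 calls, 4 were lost without wild-type clone 3 (adjusted p = 0.0709).

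Of 20 naive pluripotency genes, 2 had a higher response (Klf2 and Dppa5a) and 0 a lower one, beside 2.87% and 1.96% of all genes tested, with a median difference of 0.31. In the null lines 8 fell, and in the intact lines 10. Klf2, a factor of the naive state, had 2506, 1293, 1989 and 974 at day 7 in the null lines and 912, 761, 912 and 824 in the intact lines. Klf2 at day 0 had 1074, 1038, 929 and 963 in the null lines and 2789, 2640, 1377 and 2238 in the intact lines. The null lines were all below the intact lines at day 0 and all above them at day 7, and the difference was 2.02 ± 0.37 (adjusted p = 0.0205). At day 2 Klf2 had 2070.2, 429, 1397 and 406 in the null lines and 995, 370.2, 756 and 324 in the intact lines, with clone 1 above clone 3 in each genotype. Dppa5a, an RNA-binding protein of pluripotent cells, had 7996, 5069, 6412 and 2962 at day 7 in the null lines and 1883, 2332, 2019 and 1434 in the intact lines. Dppa5a differed by 2.24 ± 0.47 (adjusted p = 0.0281). Copies such as Dppa5b and Dppa5c could share its reads. Nanog and Esrrb, at 1.54 ± 0.64 and 1.71 ± 0.53, did not pass (adjusted p = 0.164 and 0.076). Nanog at day 7 was 1258, 263, 773 and 148 in the null lines and 279, 308, 250 and 213 in the intact lines, where clone 1 of each null genotype was above all intact lines. Of 16 general pluripotency genes 13 fell in the null lines and 12 in the intact lines, and 1, Lin28b, which blocks let-7 maturation, had a lower response (-1.70 ± 0.43, adjusted p = 0.0427). Of 16 formative and primed genes 2 had a lower response and 0 a higher one. They were Etv4, an ETS factor downstream of FGF (-1.66 ± 0.41, adjusted p = 0.0401), and Sall2, a zinc finger factor (-2.45 ± 0.55, adjusted p = 0.0307). Of the calls of Klf2, Dppa5a, Lin28b, Etv4 and Sall2, 5 were lost without wild-type clone 3 (adjusted p = 0.0818 to 0.141), 5 without Cdc14a KO clone 1 (adjusted p = 0.0631 to 0.106) and 5 without Cdc14a KO clone 3 (adjusted p = 0.053 to 0.0914). Leaving out wild-type clone 1 ended 4 (adjusted p = 0.0521 to 0.101), Cdc14ab KO clone 1 ended 3 (adjusted p = 0.0507 to 0.0591), Cdc14b KO clone 1 ended 2 (adjusted p = 0.0713 to 0.0783) and Cdc14ab KO clone 3 ended 2 (adjusted p = 0.0505 to 0.0603).

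Reversed falls, with a fall of at least 1 in the intact lines and a rise of that size in the null lines, numbered 105 of the 134 reversed genes. Ccdc6, a coiled-coil protein (chromosome 10), had 404, 197, 221 and 452 at day 7 in the null lines and 30.4, 44.8, 30.2 and 40.1 in the intact lines. Ccdc6 at day 0 had 202, 154, 48.1 and 131 in the null lines and 153, 157, 203 and 313 in the intact lines. It rose in the null lines (mean response 1.33, adjusted p = 0.00919) and fell in the intact lines (-2.43, adjusted p = 0.000226). Ccdc6 differed by 3.76 ± 0.45 (adjusted p = 0.0129). Llgl1, a regulator of cell polarity, had 592, 318, 258 and 163 at day 7 in the null lines and 38, 87.9, 123 and 102 in the intact lines. Llgl1 differed by 3.59 ± 0.50 (adjusted p = 0.0129). Gpx4, which reduces lipid peroxides, had 344, 302, 239 and 479 at day 7 in the null lines and 119, 116, 122 and 118 in the intact lines and crossed between the arms from day 0. Gpx4 differed by 2.76 ± 0.38 (adjusted p = 0.0129). Rps23, a protein of the small ribosomal subunit, had 4209, 1706, 1839 and 901 at day 7 in the null lines and 223, 456, 372 and 458 in the intact lines. Rps23 differed by 2.94 ± 0.44 (adjusted p = 0.0129). Rps23 and Gpx4 have near-identical processed copies in the annotation, so their counts are uncertain. Among the calls of Ccdc6, Llgl1, Gpx4 and Rps23, 4 were lost without wild-type clone 3 (adjusted p = 0.0709) and 1 without Cdc14a KO clone 1 (adjusted p = 0.0501).

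Cdk1, the kinase that drives entry into mitosis, was among the reversed falls. It had 4449, 3228, 4506 and 2322 normalized counts at day 7 in the null lines and 484, 1181, 1431 and 1005 in the intact lines. Cdk1 at day 0 had 2478, 1123, 309 and 756 in the null lines and 1897, 2343, 1888 and 4898 in the intact lines. All null lines were above all intact lines at day 7, and they overlapped at day 0. The difference was 3.37 ± 0.59 (adjusted p = 0.0176). The lowest day 0 level was that of the library of Cdc14ab KO clone 1, and without this line the difference was 2.74. Of 24 mitosis genes, 3 had a higher response (Cdk1, Bub1b and Kif20a) and 0 a lower one, beside 2.87% and 1.96% of all genes tested. The median difference of the list was 0.26. Of the 24, 2 rose and 5 fell in the null lines, and 0 rose and 9 fell in the intact lines. Kif20a, a kinesin of the central spindle, differed by 2.31 ± 0.56 (adjusted p = 0.0391), and its response in Cdc14ab KO clone 1 was 3.23, against 0.30 to 0.54 in the other null lines. Ttk, another spindle checkpoint kinase, had a difference of -1.28 ± 0.34 that did not pass (adjusted p = 0.0518). Of 24 genes of the G1-S transition and replication, 2 had a higher response and 2 a lower one. Cdk2, the S-phase kinase, had 245, 97.1, 129 and 118 at day 7 in the null lines and 29.3, 54.5, 32.6 and 75.1 in the intact lines. Cdk2 differed by 2.34 ± 0.48 (adjusted p = 0.0266). Cdkn2a, the locus of the inhibitors p16 and p19Arf, differed by 2.24 ± 0.50 (adjusted p = 0.0307) with 748, 509, 728 and 451 at day 7 in the null lines and 214, 187, 326 and 145 in the intact lines. The D-type cyclin Ccnd2, at -2.60 ± 0.59, and its partner kinase Cdk6, at -1.58 ± 0.39, had the lower response (adjusted p = 0.0322 and 0.04). Among the calls of Cdk1, Kif20a, Cdk2, Cdkn2a, Ccnd2 and Cdk6, 6 were lost without wild-type clone 3 (adjusted p = 0.0805 to 0.141), 6 without Cdc14a KO clone 1 (adjusted p = 0.0567 to 0.107) and 5 without Cdc14a KO clone 3 (adjusted p = 0.053 to 0.0859). Removal of wild-type clone 1 ended 5 (adjusted p = 0.0541 to 0.0783), Cdc14b KO clone 1 ended 2 (adjusted p = 0.0647 to 0.0794), Cdc14ab KO clone 3 ended 2 (adjusted p = 0.0527 to 0.0689) and Cdc14ab KO clone 1 ended 1 (adjusted p = 0.0556).

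Rises gained in the null lines numbered 114 genes. Slc2a1, the glucose transporter GLUT1 (chromosome 4), had 2735, 3108, 1645 and 3902 at day 7 in the null lines and 378, 862, 1045 and 912 in the intact lines. Slc2a1 at day 0 had 715, 378, 476 and 447 in the null lines and 749, 592, 772 and 1258 in the intact lines. Day 7 levels separated the arms and day 0 levels overlapped, and the difference was 2.59 ± 0.43 (adjusted p = 0.0169). Asb8, a SOCS box protein, had 271, 169.6, 182 and 191 at day 7 in the null lines and 55.4, 107, 75.6 and 81.1 in the intact lines. Asb8 differed by 3.08 ± 0.46 (adjusted p = 0.0129). Kdelr2, a receptor that returns proteins to the endoplasmic reticulum, had 606, 516, 539 and 779.7 at day 7 in the null lines and 152, 259, 284 and 234 in the intact lines. Kdelr2 differed by 2.61 ± 0.43 (adjusted p = 0.0169). Zkscan17, a zinc finger protein, had 309.9, 286, 297 and 270.3 at day 7 in the null lines and 90.2, 208, 128 and 179 in the intact lines. Zkscan17 differed by 2.42 ± 0.43 (adjusted p = 0.0176). Asb8, Kdelr2 and Zkscan17 were below the intact lines in every null line at day 0 and above them in every null line at day 7. Of the 4 calls, 4 were lost without wild-type clone 3 (adjusted p = 0.0709 to 0.0815) and 3 without Cdc14a KO clone 1 (adjusted p = 0.0512 to 0.0567).

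Among strengthened rises were Mmp9, a matrix protease, and Cited1, a transcriptional coregulator on chromosome X. Mmp9 had 102, 139, 131 and 491 at day 7 in the null lines and 51, 88.7, 67.4 and 55.5 in the intact lines. Mmp9 differed by 2.00 ± 0.50 (adjusted p = 0.043). Cited1 had 378, 319, 504 and 1801 at day 7 in the null lines and 202, 255, 379 and 177 in the intact lines. Cited1 differed by 2.82 ± 0.72 (adjusted p = 0.0446), and Cdc14ab KO clone 3 was high in both genes. In the trophectoderm list 10 of 13 genes rose in the null lines and 8 in the intact lines. The median difference was 1.15, and 0 of 13 differed by limma (3 at an unadjusted p under 0.05) while edgeR called 1 and DESeq2 called 3. Tfap2c, a transcription factor of trophoblast and germ cells, had 5393, 2307, 5233 and 9016 at day 7 in the null lines and 2224, 1628, 2445 and 1420.5 in the intact lines. Tfap2c had a difference of 2.21 ± 0.65 that did not pass (adjusted p = 0.0678). Krt19, a keratin of simple epithelia, had 371, 187, 396 and 2039 at day 7 in the null lines and 412, 359.7, 343 and 285 in the intact lines, and Cdc14ab KO clone 3 was the only null line above all intact lines. Between Mmp9 and Cited1, 2 were lost without wild-type clone 3 (adjusted p = 0.121 to 0.141), 2 without Cdc14a KO clone 1 (adjusted p = 0.102 to 0.122) and 2 without wild-type clone 1 (adjusted p = 0.0855 to 0.099). Leaving out Cdc14ab KO clone 1 ended 2 (adjusted p = 0.0761 to 0.085), Cdc14a KO clone 3 ended 2 (adjusted p = 0.0589 to 0.0845) and Cdc14ab KO clone 3 ended 2 (adjusted p = 0.0742 to 0.0799).

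The highest response differences fell to genes of several functions. Eif3j2, a copy of the gene for translation initiation factor subunit eIF3j, had 320.1, 61.2, 212 and 225 at day 7 in the null lines and 1.09, 4.88, 1.16 and 30.7 in the intact lines. Eif3j2 at day 0 had 36.8, 1.11, 1.27 and 84.4 in the null lines and 3.12, 7.18, 7.47 and 86.2 in the intact lines. The difference was 5.20 ± 0.93 (adjusted p = 0.018), but its paralog Eif3j1 can share reads, so the value is uncertain. Syvn1, a ubiquitin ligase of the endoplasmic reticulum, had 232, 53.3, 97.3 and 49.5 at day 7 in the null lines and 6.52, 3.26, 27.9 and 13.7 in the intact lines. Syvn1 differed by 4.51 ± 0.85 (adjusted p = 0.0215). Rbm38, an RNA-binding protein, had 1074, 221, 644 and 206 at day 7 in the null lines and 41.3, 47.2, 137 and 52.1 in the intact lines. Rbm38 differed by 4.19 ± 0.82 (adjusted p = 0.0234). At day 0 the library of Cdc14ab KO clone 1 was the lowest of the 8 for Syvn1 and Rbm38, and without this line their differences were 3.77 and 3.26. Rep15, Flvcr2, Zdhhc8, Smim26 and Polr2h, which encode a Rab15 effector, a membrane transporter, a palmitoyltransferase, a small membrane protein and a subunit of RNA polymerases, differed by 4.28, 4.04, 3.97, 3.93 and 3.89. Without Cdc14ab KO clone 1 they differed by 2.88, 3.88, 2.80, 2.93 and 3.33, and Eif3j2 by 4.34. Cdc14ab KO clone 1 had the highest response of the 8 lines in 9 of the 10 genes with the highest difference, with Flvcr2 the exception. Among the calls of these 8 genes, 8 were lost without wild-type clone 3 (adjusted p = 0.0786 to 0.161), 8 without Cdc14a KO clone 1 (adjusted p = 0.0502 to 0.102) and 6 without Cdc14a KO clone 3 (adjusted p = 0.0518 to 0.0937). Removal of wild-type clone 1 ended 4 (adjusted p = 0.0541 to 0.0832), Cdc14ab KO clone 3 ended 3 (adjusted p = 0.0517 to 0.0576), Cdc14b KO clone 1 ended 2 (adjusted p = 0.0516 to 0.0668), Cdc14b KO clone 3 ended 1 (adjusted p = 0.0642) and Cdc14ab KO clone 1 ended 1 (adjusted p = 0.0626).

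Psmb9, a catalytic subunit of the immunoproteasome, which cuts peptides for presentation on MHC class I molecules, had 28.4, 23.6, 30.5 and 60.4 at day 7 in the null lines and 5.43, 11.4, 6.98 and 8.54 in the intact lines. At day 0 it had 32.1, 26.7, 6.33 and 14.8 in the null lines and 131, 43.1, 113 and 82.2 in the intact lines, below the intact lines in every null line, and the difference was 4.22 ± 0.73 (adjusted p = 0.0171). Psmb8, the neighbouring subunit, had 34.4, 73.5, 42.2 and 57.1 at day 7 in the null lines and 26.1, 72.4, 34.9 and 71.7 in the intact lines. Psmb8 at day 0 had 78.4, 44.5, 21.5 and 58 in the null lines and 332, 147, 386 and 375 in the intact lines. The day 0 levels did not overlap while the day 7 levels did, and the difference was 2.73 ± 0.62 (adjusted p = 0.0338). Of 12 genes of the immunoproteasome and MHC class I presentation, 4 had a higher response and 0 a lower one, with a median of 0.62. In the null lines 1 rose and 1 fell, and in the intact lines 0 rose and 5 fell. The others called were H2-D1, an MHC class I heavy chain (2.18 ± 0.54, adjusted p = 0.0394), and Irf1, an interferon-responsive transcription factor (2.26 ± 0.59, adjusted p = 0.047). H2-D1 belongs to a gene family with shared sequence, so its counts are uncertain, and its day 7 level was 412, 373, 444 and 1740 in the null lines and 216, 309, 310.4 and 309 in the intact lines. Among these 4 calls, 4 were lost without wild-type clone 3 (adjusted p = 0.0786 to 0.154), 4 without Cdc14a KO clone 1 (adjusted p = 0.0567 to 0.104) and 3 without wild-type clone 1 (adjusted p = 0.0525 to 0.079). Leaving out Cdc14ab KO clone 1 ended 3 (adjusted p = 0.0585 to 0.0753), Cdc14ab KO clone 3 ended 3 (adjusted p = 0.0505 to 0.063), Cdc14a KO clone 3 ended 2 (adjusted p = 0.0644 to 0.107), Cdc14b KO clone 1 ended 1 (adjusted p = 0.0901) and Cdc14b KO clone 3 ended 1 (adjusted p = 0.0542).

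Slc3a2 and Slc7a5, which encode the heavy and light chain of the amino acid transporter LAT1, both lost a fall. Slc3a2 had 1023, 1799, 1026 and 1499 at day 7 in the null lines and 432, 554, 506 and 485 in the intact lines. Slc3a2 at day 0 had 1593, 1001, 437 and 795 in the null lines and 1952, 1959.6, 1243 and 2728 in the intact lines. Slc3a2 differed by 2.53 ± 0.42 (adjusted p = 0.0169). Slc7a5 had 1703, 692, 725 and 715 at day 7 in the null lines and 209.6, 111, 281 and 137 in the intact lines. Slc7a5 differed by 1.93 ± 0.43 (adjusted p = 0.0307). They were 2 of 19 ATF4 and amino acid supply genes and the only members called, and the median of the list was -0.06, beside -0.05 over all genes tested. Asparagine synthetase (Asns) at 0.96 ± 0.33 and the chaperone gene Hspa5 at -0.64 ± 0.29 did not pass (adjusted p = 0.0991 and 0.192). Of 24 cholesterol synthesis genes 0 differed by limma (3 at an unadjusted p under 0.05) or by edgeR and 1 by DESeq2. In this list 6 rose in the null lines and 0 in the intact lines, and the median was 0.40. Between Slc3a2 and Slc7a5, 2 were lost without wild-type clone 3 (adjusted p = 0.0786 to 0.104), 2 without Cdc14a KO clone 1 (adjusted p = 0.0567 to 0.0858) and 1 without Cdc14a KO clone 3 (adjusted p = 0.0752). Removal of Cdc14b KO clone 1 ended 1 (adjusted p = 0.0516).

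Of 19 fibroblast and extracellular matrix genes, 1 had a lower response, the adhesion molecule gene Vcam1 (-2.75 ± 0.59, adjusted p = 0.0285), and the median was -1.29. The call was lost without wild-type clone 3 (adjusted p = 0.109), wild-type clone 1 (adjusted p = 0.0665), Cdc14a KO clone 3 (adjusted p = 0.0638), Cdc14a KO clone 1 (adjusted p = 0.0567), Cdc14b KO clone 1 (adjusted p = 0.0512) and Cdc14ab KO clone 3 (adjusted p = 0.0505). In the null lines 8 rose and 4 fell, and in the intact lines 12 rose and 0 fell. Col1a1, the type I collagen chain, had 631, 696, 1549 and 159 at day 7 in the null lines and 1905, 1739.8, 2331 and 1515 in the intact lines and did not pass (-1.88 ± 0.58, adjusted p = 0.0771). The sum of 6 fibroblast markers (Col1a1, Col1a2, Col3a1, Thy1, Postn and Dcn) was 255 to 1860 at day 7 in the null lines and 2159 to 2993 in the intact lines. At day 0 it was 156 to 230.0 in the null lines and 144 to 361 in the intact lines. The sum does not tell feeder cells from other cells that make these transcripts, and its part in the other differences was not tested.

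The remaining 51 called genes had mean responses under 1 in both arms, as had 8255 of the 14983 genes tested. Sox12, a SoxC transcription factor, had 191, 444, 221 and 308 at day 7 in the null lines and 447, 608, 488 and 734 in the intact lines. Sox12 differed by -1.75 ± 0.37 (adjusted p = 0.0281). Polr2g, a subunit of RNA polymerase II, had 877, 1208, 980.5 and 886 at day 7 in the null lines and 427, 566, 469.8 and 479.8 in the intact lines. Polr2g differed by 1.79 ± 0.38 (adjusted p = 0.0281). Zranb2, Hsd17b12 and Zfp219 were likewise lower, at -1.36, -1.44 and -1.36, and Chic2, Pop7 and Aurkaip1 higher, at 1.35, 1.53 and 1.64. Among these 8 calls, 8 were lost without wild-type clone 3 (adjusted p = 0.104 to 0.126), 8 without Cdc14a KO clone 1 (adjusted p = 0.0646 to 0.0941) and 8 without Cdc14a KO clone 3 (adjusted p = 0.0521 to 0.0752). Leaving out wild-type clone 1 ended 7 (adjusted p = 0.0517 to 0.0725) and Cdc14ab KO clone 3 ended 3 (adjusted p = 0.0505 to 0.0527).

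**Figure D5:**
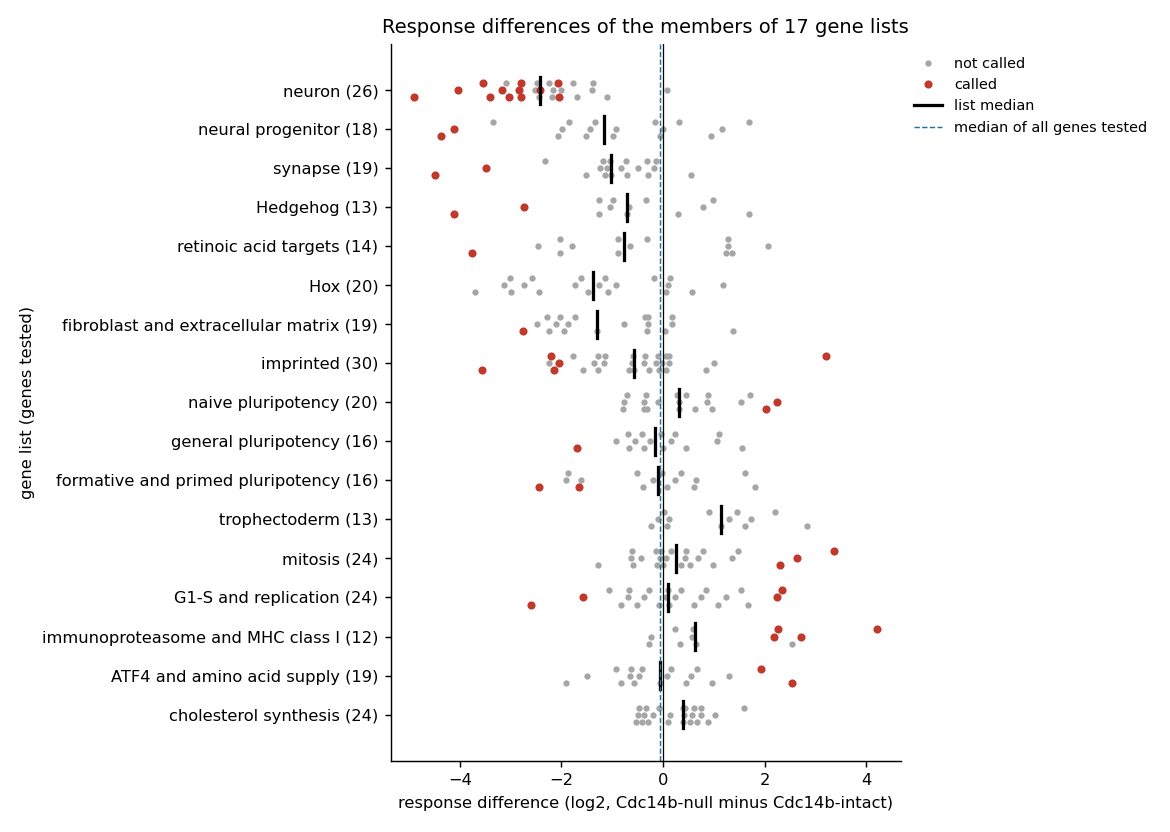
Response difference (log2, Cdc14b-null minus Cdc14b-intact) of the members of 17 gene lists, with the number of genes tested in brackets. Red points are called members, grey points members not called, black bars list medians and the dashed blue line the median of all genes tested (-0.05); the neuron list has 12 called members, all negative, and the immunoproteasome and MHC class I list has 4, all positive.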

How the data were processed

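The deposited values are gene counts that the authors normalized to a common depth. Per the submitters' processing notes, the build was GRCm38, and the tools named were HTSeq 0.6.1, DESeq2, TopHat2 2.0.10, SAMtools 0.1.19, FastQC 0.11.7 and Bowtie 1.0.0, and their roles and settings are not given in the sources used here. Per the labels' protocols, RNA was extracted with the miRVana kit, and libraries were made with the QuantSeq 3′ mRNA-Seq FWD kit, which keeps the strand. Each deposited normalized count signal equals whole reads divided by a single factor per library (100% of values within 0.001 of a whole read), and these reads gave the depths.

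Responses were tested with limma 3.58.1 in R 4.3.3 (trended, robust empirical Bayes, 6 residual degrees of freedom) on the log2(value + 1) scale, which understates changes of low genes. Of 17545 genes, 14983 had at least 10 normalized counts in at least 4 of the 16 libraries. P-values were adjusted by Benjamini-Hochberg over all genes tested, and an adjusted p under 0.05 was called. The median SE of a response difference was 0.496. Day 0 and day 7 libraries were paired by line, as the labels give the line of each; the deviations of the day 0 and day 7 libraries of a line from their arm means correlated at -0.0788 to 0.101. Alternatives were count tests of the recovered reads with DESeq2 1.42.0 and edgeR 4.0.16, other pseudocounts, filters and scalings, single clones or backgrounds, and each line left out. At day 0 and day 7, the 2 clones of a genotype never agreed within sampling noise (chi-square per gene 25.98 or more). Other pairs of libraries were not compared in this way. The procedure was tested on simulated data, in 5 simulations with 200 changed genes each among 14983. Counts were drawn gene by gene from a negative binomial model, with dispersions that edgeR estimated from these data. Apart from the changed genes, lines differed only in depth and by the random draw. Deviant libraries and clone effects across genes were not simulated, so the rates may differ in the real data. Mean false calls per simulation were 2.8 by limma, 2 by edgeR and 27.6 by DESeq2. Figures were drawn with matplotlib 3.10.9 in Python 3.11.15. Of the symbols, 17473 matched GENCODE M21, which gave chromosomes and transcript lengths.

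Named genes were Cdc14a, Cdc14b and Utf1, the 10 highest and 10 lowest called differences, up to 4 per class and up to 4 per list with the smallest p, without predicted genes, pseudogenes and, outside the lists, genes with a mean under 20 normalized counts or with overlapping responses. Other called members of the 31 gene lists were named after their values were seen. The genes, lists and comparisons were chosen with earlier results of these data known.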

Additional observations from a re-analysis of the deposited data

Results flagged for a closer look

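The response differed between Cdc14b-null and Cdc14b-intact lines in 724 genes, by a test of the difference itself. Among 123 named genes, the response of a single line lay far from the other 3 of its arm in 11 of 246 groups of 4 lines, and chance flags about 1 in 20 groups.

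In the null arm, Cdc14ab KO clone 1 stood apart in 3 genes. Its responses were 3.45 for Cdkn2a, against 1.03 to 1.41 in the other null lines, 3.23 for Kif20a, against 0.30 to 0.54, and 2.12 for Polr2h, against -0.30 to 0.05. Cdc14ab KO clone 3 stood apart for Spon1, at -4.24 against -1.48 to -1.01, and for Col3a1, a fibrillar collagen gene, at 1.79 against 3.48 to 3.78. Cdc14b KO clone 1 stood apart for Hsd17b12, at -0.29 against -1.22 to -1.07.

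In the intact arm, wild-type clone 3 stood apart in 4 genes, with responses of 1.49 for Cplx1, against 0.67 to 0.76 in the other intact lines, 0.52 for Cdk6, against -0.03 to 0.06, -2.35 for Dppa5a, against -1.19 to -1.14, and 1.69 for the ETS factor gene Etv1, against 1.08 to 1.13. Wild-type clone 1 stood apart for Zfp219, at 0.28 against 0.87 to 0.91.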

How the results depend on the processing

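The 724 genes were called again in full by DESeq2, which called 1668, and with a replicate block across genotypes, which called 1417 and also called Utf1 (1.55, adjusted p = 0.0489, and 1.54, adjusted p = 0.0272, by DESeq2). Without the replicate block of lines the count was 603, and 573 genes were called by limma, edgeR and DESeq2 alike. It was 0 in Cdc14b KO against wild type only and in Cdc14ab KO against Cdc14a KO only (2 lines per arm), 2 with clone 1 lines only, 0 with clone 3 lines only, 145 without trended and robust variances, 397 without the lines with over 7% of reads on Gm42418 (184 higher and 213 lower), and by edgeR 389 without Cdc14ab KO clone 1 and 0 without wild-type clone 3, the last 2 and DESeq2 without wild-type clone 3 chosen after seeing the data. In these last settings Cdc14b had differences of -1.57, -1.42, -1.99, -1.01, -1.50, -1.40, -1.23 and -1.47, none called. Calls of the null response were 943, 777, 2330 and 2674 in the single backgrounds and clones and 1910 without the Gm42418-rich lines. Those of the intact response were 1713 and 401 in the backgrounds, 1651 with clone 1 lines and 2451 by edgeR without wild-type clone 3.

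Lost responses numbered 654 by DESeq2, 573 with the replicate block, 65 without trended and robust variances, 166 without the Gm42418-rich lines, 210 and 0 by edgeR without Cdc14ab KO clone 1 and without wild-type clone 3, and 208 counting responses from 1.5-fold. Gained responses numbered 456, 383, 28, 87, 89 and 0 in the first 6 of these settings. Reversed responses numbered 88 with a filter of 50 counts, 86 counting responses by adjusted p, 319 from 1.5-fold, 16 from 3-fold, 40 without trended and robust variances, and 48 and 0 by edgeR without these 2 lines.

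Leaving out each line in turn gave 0 to 812 differing genes, 3125 to 3973 calls of the null response, 2567 to 5101 of the intact response, 0 to 311 lost, 0 to 165 reversed and 0 to 238 gained responses, and differences of -1.62 to -1.31 for Cdc14b, 1.12 to 1.89 for Utf1 and -0.54 to 0.18 for Cdc14a. The Cdc14a difference, at low counts, was above 0 in 9 settings: 0.54 in Cdc14ab KO against Cdc14a KO, 0.66 with clone 1 lines, 0.0407 without the Gm42418-rich lines, 0.18 and 0.15 by edgeR and DESeq2 without wild-type clone 3, and 0.00380, 0.06, 0.18 and 0.16 without Cdc14b KO clones 1 and 3, Cdc14a KO clone 3 and wild-type clone 3. Other alternatives gave 569 to 874 genes. The cause of these changes was not tested. With 4 lines per arm and a median SE near 0.5, differences under 1 were rarely detectable, and larger ones were often missed. On simulated data limma called 1.6% of genes with a 2-fold difference, 37.2% at 4-fold, 71.6% at 8-fold and 84.8% at 16-fold.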

Other observations

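Germline genes held a higher response in 2 of 18 members and a lower one in 0, with a median difference of 0.37, and 13 rose in the null lines and 9 in the intact lines. Sohlh2, a bHLH factor of early germ cells, had 363, 108, 227 and 39.5 normalized counts at day 7 in the null lines and 59.7, 17.9, 135 and 42.7 in the intact lines and differed by 3.25 ± 0.77 (adjusted p = 0.036). Dnd1, an RNA-binding protein of germ cells, had 37.5, 21.9, 26.5 and 43.6 at day 7 in the null lines and 11.9, 7.32, 30.2 and 9.39 in the intact lines and differed by 2.52 ± 0.59 (adjusted p = 0.036). Neither separated the arms at day 7.

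Single members were called in several signalling lists. Id4, a BMP-responsive inhibitor of bHLH factors, had 17.2, 28, 15.7 and 8.39 at day 7 in the null lines and 111, 229, 133 and 295 in the intact lines and differed by -3.67 ± 0.78 (adjusted p = 0.0285). It was 1 of 10 BMP genes called (median 0.18). Tcf7, a transcription factor of the Wnt pathway, had 192, 58.6, 119.9 and 65.5 at day 7 in the null lines and 6.52, 50.5, 38.4 and 44.4 in the intact lines and differed by 3.24 ± 0.76 (adjusted p = 0.0359), 1 of 14 Wnt genes (median -0.61). Etv1, with Etv4 1 of 2 genes called lower among 15 FGF-ERK genes (median -0.54), differed by -2.03 ± 0.42 (adjusted p = 0.0269). The glutamate transporter gene Slc1a3 of glia differed by -2.30 ± 0.49 (adjusted p = 0.0285), 1 of 8 glia genes (median -0.14), and Slc2a1 was the 1 called of 18 hypoxia and glycolysis genes (median -0.10). Among the calls of Sohlh2, Dnd1, Id4, Tcf7, Etv1 and Slc1a3, 6 were lost without wild-type clone 3 (adjusted p = 0.101 to 0.126), 5 without Cdc14a KO clone 1 (adjusted p = 0.0631 to 0.0991) and 5 without Cdc14a KO clone 3 (adjusted p = 0.0612 to 0.0916). Removal of wild-type clone 1 ended 4 (adjusted p = 0.0517 to 0.0653), Cdc14b KO clone 1 ended 3 (adjusted p = 0.0512 to 0.0692), Cdc14ab KO clone 1 ended 3 (adjusted p = 0.0617 to 0.0645), Cdc14ab KO clone 3 ended 3 (adjusted p = 0.0505 to 0.052) and Cdc14b KO clone 3 ended 1 (adjusted p = 0.0543).

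By limma, 0 genes were called among 10 mesoderm, 8 endoderm, 7 2-cell-like, 15 p53 target, 16 PRC2 and DNA methylation, 13 mitochondrially encoded and 5 Y-linked and Xist genes. Their medians were 0.82, -0.34, 0.41, 0.16, -0.06, -0.72 and -0.24. At an unadjusted p under 0.05 they had 1, 0, 1, 5, 4, 2 and 0 genes, edgeR called 0 in each, and DESeq2 called 1 of the 2-cell-like and 2 of the PRC2 and DNA methylation genes. All 7 of the 2-cell-like genes rose in both arms. Tcstv1, a gene of that state, rose by 5.68 in the null lines and 5.20 in the intact lines on the log2 scale. Among mitochondrially encoded genes 10 of 13 fell in the null lines and 4 in the intact lines. Ezh2, the catalytic subunit of PRC2, had a difference of -0.93 ± 0.28 (adjusted p = 0.0695).

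Genes with a lower response had longer transcripts. The median annotated transcript length was 2674 bases for the 430 genes with a higher response, 4809.5 for the 294 with a lower response and 3183 for all genes tested with a length. Of the 3735 genes with the shortest transcripts 3.83% were called higher and 0.83% lower, and of the 3733 with the longest 1.71% were called higher and 4.07% lower. The X chromosome held 12 of the 430 and 21 of the 294, against 508 of the 14983 genes tested.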
